A study of Mus musculus with 24 samples.

Results

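Interferon-stimulated genes are the genes that a cell switches on when interferon, a secreted warning protein of infected or damaged tissue, binds its receptor. The 9 described here are Ifit1, Ifit3, Isg15, Irf7, Bst2, Oasl2, Usp18, Ifitm3 and Ifi27, chosen by name. A probe set, the group of array probes designed for 1 transcript, was used if the array annotation assigned it to a single one of these symbols, and where a gene had several, the one that was brightest on average over the arrays gave its value. By that rule 8 of the 9 genes were measured, through 9 probe sets, among 18193 genes in all. Isg15 was not measured, because the probe set that carries its symbol is also assigned to Gm9706, a pseudogene, and signal from one cannot be told apart from signal of the other.

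The arrays were made from the forebrain of TgCRND8 mice and of littermates without the transgene. TgCRND8 mice express human amyloid precursor protein bearing the Swedish and Indiana mutations (APPSwe/Ind). The transgene is driven by a prion protein gene promoter, and amyloid plaques form with age. Each genotype was sampled at 70, 80 and 150 days of age, with 4 mice and 1 array per mouse in each of the 6 groups, 24 arrays in all. The strain background and the sex of the mice are not given in the sources used here. Xist, which female cells transcribe from their silenced X chromosome, was low on 5 arrays: 1 control array of day 70, and 2 arrays of each genotype at day 80. All values are deposited log2 signals, so a difference of 1 is a doubling. Probe sets bind with different strength, so levels are compared between arrays for 1 probe set and not between genes.

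In the usual course of the response, type I interferons bind the Ifnar1 and Ifnar2 receptor, the Janus kinases Jak1 and Tyk2 are activated, and a complex that holds Stat2 and Irf9 binds the interferon-stimulated response element in target promoters. Irf7 is itself a target and drives further interferon production, whereas the protease Usp18 removes Isg15 from proteins and dampens signalling at the receptor. In brain the response is known from viral infection, and interferon-responsive microglia have been described around amyloid plaques.

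The promoters of the genes show the sequence on which this response acts. RefSeq promoter windows of build GRCm38.p6, which run from 250 bases before to 50 bases after the transcription start, were listed for 7 of the 9 genes, and Usp18 on chromosome 6 and Ifi27 on chromosome 12 had no entry. The response element was searched as GAAANNGAAA on both strands. It occurred in 5 of the 7 windows, against 3.44% of all 32851 windows of this length. The stretches of the 4 genes whose matches lie before the start are given here because they hold the matches, which are in capitals; all are written 5′ to 3′ on the gene's own strand, with 15 bases on either side.
Ifit1, chr19:34640770-34640828, plus strand: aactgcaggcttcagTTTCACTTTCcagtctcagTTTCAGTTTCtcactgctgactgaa
Ifit3, chr19:34583358-34583431, plus strand: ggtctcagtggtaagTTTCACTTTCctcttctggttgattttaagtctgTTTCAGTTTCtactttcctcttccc
Isg15, chr4:156200860-156200911, minus strand: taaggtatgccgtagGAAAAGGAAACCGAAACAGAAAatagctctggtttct
Bst2, chr8:71537572-71537617, minus strand: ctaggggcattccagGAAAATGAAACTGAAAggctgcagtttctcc

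In Ifit1 and Ifit3 the matches stand on the opposite strand, so they read as TTTC pairs: Ifit1 held them from base -104 and base -85 before the start, and Ifit3 from base -156 and base -122. Isg15 held 3 overlapping matches, from base -78 to base -57, and Bst2 held 2 overlapping ones, from base -130 to base -115. In Ifitm3, on chromosome 7, the 2 matches lay just after the start, from base 3 and base 20. No match was found in the windows of Irf7, on chromosome 7, and Oasl2, on chromosome 5. The gamma-activated site, a promoter element of the response to interferon gamma, was searched as TTCNNNGAA and was found in Bst2 from base -136, where it overlaps the response element match, and in Ifitm3 from base 14; it occurred in 8.3% of all windows. A match describes letters in a window and does not show that the site is used in forebrain.

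How far the arrays could see each gene differed. Oasl2 lay below the lower quartile of its array on 23 of 24 arrays, and Usp18 on 18. Ifit1 lay there on 5 arrays and Irf7 on 4, and all 4 of these genes were below the array's median on each of the 24 arrays. Bst2, Ifit3, Ifitm3 and Ifi27 were never below the array's median. The lower quartile ran from 3.15 to 3.32 and the median from 4.28 to 4.38 over the arrays. The values used here carry no detection calls, so whether the 4 dim genes stood above background was not tested.

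One array stands apart and touches several results below. The dissection protocol in the labels separated the forebrain from cerebellum and brainstem, yet on replicate 4 of the day 150 controls the mean of 7 cerebellar markers was 4.54, against 3.75 to 4.06 on the other 23 arrays. On that array Pcp2, a Purkinje cell gene, read 6.27 where the others lay at 3.78 to 4.56, and Gabra6, a granule cell receptor subunit, read 4.58 where the others lay at 2.76 to 3.18. The other 5 markers were within the range of the other arrays. For the 8 genes, each with its brightest probe set, the fitted differences that use this array were also computed without it. At day 150 so were those of Irf8, B2m and Ifitm2. The marker lists, the other genes of the interferon system, the second Ifi27 probe set, the permutation tests and the correlations include this array.

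**Figure D1:**
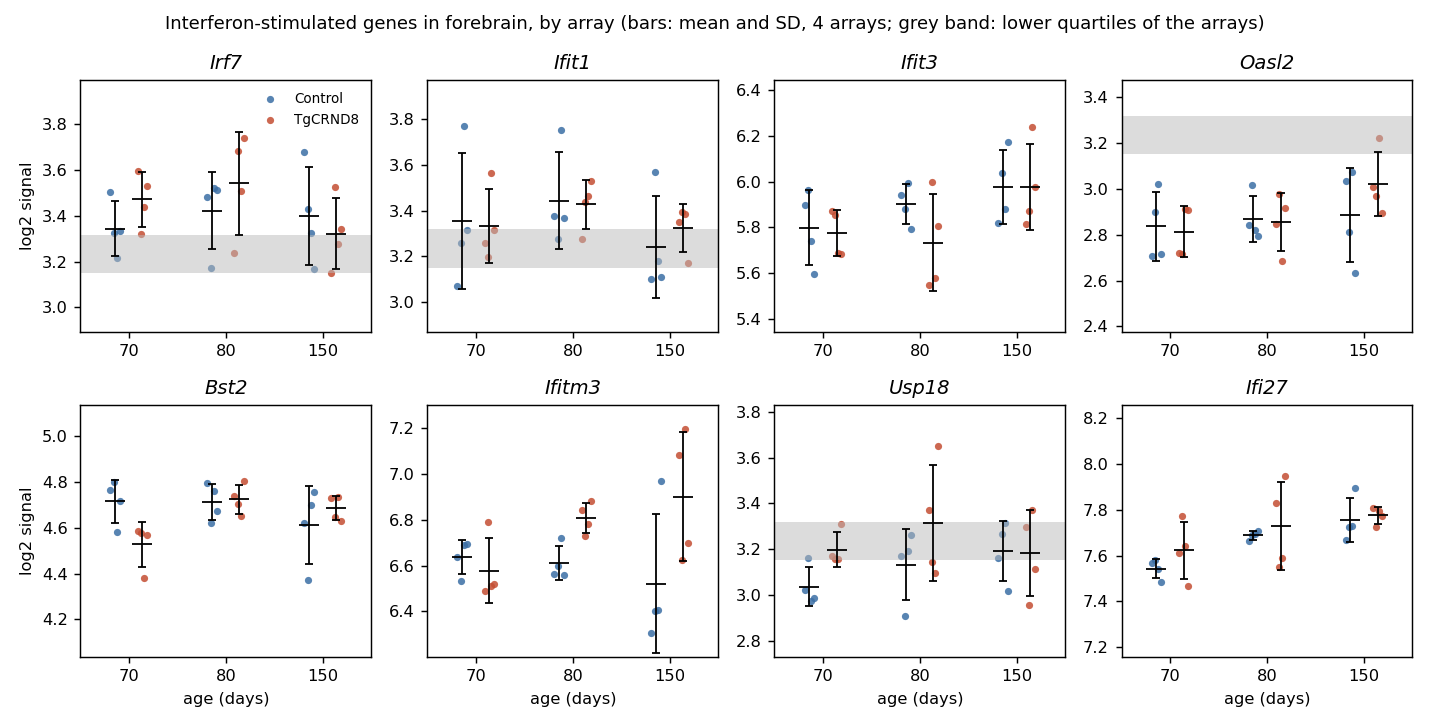
Log2 signal (vertical axis, each panel spanning 1.1 units) of the 8 measured interferon-stimulated genes against age in days, for control (blue) and TgCRND8 (red) forebrain; each point is 1 array, black bars give the mean and SD of 4 arrays, and the grey band spans the lower quartiles of the arrays. Ifitm3 separates the genotypes at day 80 and spreads widely at day 150, while Oasl2 and Usp18 lie mostly in or below the band.

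The first comparison asked whether forebrain of TgCRND8 mice differed from that of controls at each age. None of the 8 genes passed at any age, and the differences were small in both directions. In limma's fit over all genes, with Benjamini-Hochberg adjustment, 0 of 8 had an adjusted p under 0.05 at day 70, where 0% of the 18193 genes passed. At day 80 it was 0 of 8 beside 0% of all genes, and at day 150 it was 0 of 8 beside 0.121% (22 genes). At an unadjusted p under 0.05 the counts were 1 of 8 at day 70, 0 of 8 at day 80 and 1 of 8 at day 150, beside 3.25%, 3.77% and 4.38% of all genes. The median difference of the 8 genes, TgCRND8 minus control, was -0.02 at day 70, 0.03 at day 80 and 0.05 at day 150, where the medians of all genes were within 0.0031 of 0. The exact permutation test of 4 arrays against 4, whose smallest two-sided p is 0.0286, left every adjusted p of the 8 genes at 0.962 or above at the 3 ages. Without replicate 4 of the day 150 controls the median at day 150 was 0.06, and the differences of the 7 genes other than Ifitm3 ran from -0.155 for Irf7 to 0.123 for Bst2.

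**Figure D2:**
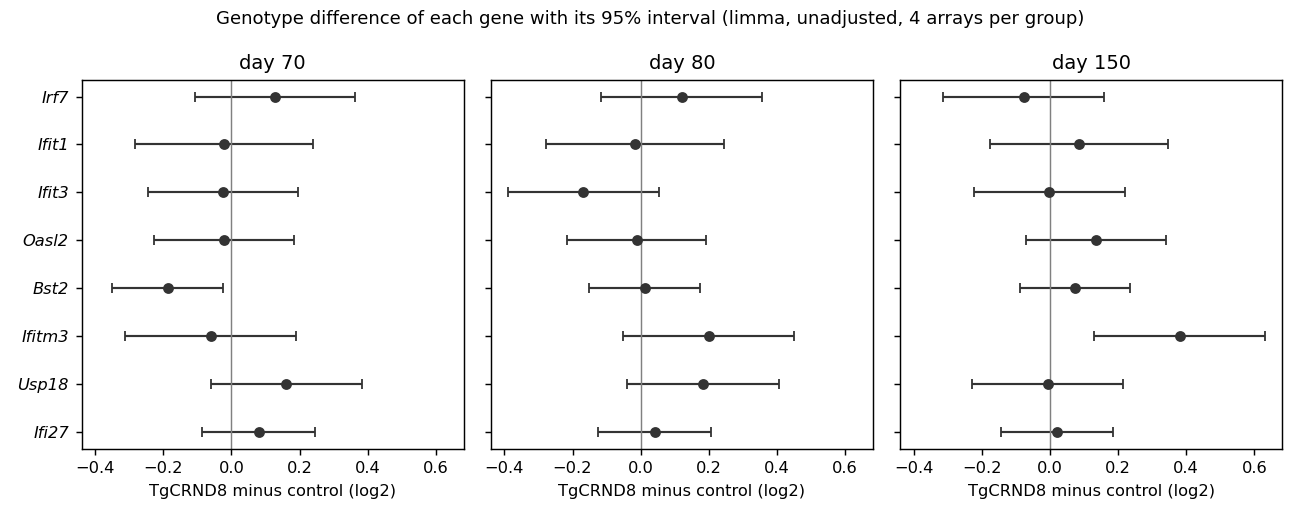
Difference in log2 signal between TgCRND8 and control (horizontal axis) for the 8 genes at 3 ages; points are limma estimates from 4 arrays per group and bars are 95% intervals without adjustment for the number of genes. At day 150 Ifitm3 lies apart at 0.38 (0.13 to 0.63), and the other intervals at that age all include 0.

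Ifitm3, a membrane protein of endosomes that blocks the entry of viruses, had the largest difference. At day 150 the TgCRND8 arrays read 7.08, 6.63, 7.20 and 6.70, and the control arrays read 6.31, 6.40, 6.41 and 6.97. Replicate 4 of the controls overlapped the TgCRND8 range, and the other 3 controls lay below all 4 TgCRND8 arrays. The means were 6.90 ± 0.28 (SD, n = 4) and 6.52 ± 0.30, a difference of 0.38 (SE 0.12; 1.30-fold, 95% interval 1.09 to 1.55), with an unadjusted p of 0.0044 and an adjusted p of 0.823 in limma. The exact permutation p was 0.143. Replicate 4 is the control array with the raised cerebellar markers, picked after the marker values were seen. It was also the highest control for Ifitm3, so leaving it out could only raise the difference. Without it the difference was 0.53 (SE 0.108), the adjusted p fell to 0.0485 and Ifitm3 passed, beside 0.0989% of all genes (18 genes) in that fit. Leaving out any of the other 7 arrays of day 150 in turn gave differences between 0.28 and 0.47, with adjusted p from 0.363 to 1.

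At day 80 the Ifitm3 values of TgCRND8 were 6.84, 6.73, 6.78 and 6.88, and those of controls were 6.56, 6.60, 6.72 and 6.56. The groups did not overlap, although replicate 3 of the controls came close to the lowest TgCRND8 array. The difference was 0.20 (SE 0.12), with an adjusted p of 0.9996 in limma and an exact permutation p of 0.0286, the smallest possible. Ifitm3 was 1 of 8 genes whose groups did not overlap at day 80, where the share of all genes was 1.25%; at days 70 and 150 it was 0 of 8, beside 2.36% and 3% of all genes.

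At day 70 Ifitm3 read 6.49 to 6.79 in TgCRND8 and 6.53 to 6.69 in controls, a difference of -0.06 (SE 0.12), and the groups overlapped. Ordered by mean, the 6 groups ran from TgCRND8 at day 150 (6.90) and TgCRND8 at day 80 (6.81 ± 0.07) through control at day 70 (6.64 ± 0.07), control at day 80 (6.61 ± 0.08) and TgCRND8 at day 70 (6.58 ± 0.14) to control at day 150 (6.52). Neighbours in this order overlapped in their array values, apart from TgCRND8 at day 80 and control at day 70.

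Markers of other cells were read beside the Ifitm3 values, since bulk RNA cannot separate a change in cell number from a change in RNA per cell. At day 150, 13 of 13 markers of plaque-associated microglia were higher in TgCRND8 and 7 passed, and their mean level was 6.02 to 6.27 on TgCRND8 arrays against 5.51 to 5.56 on controls. Of 8 markers of reactive astrocytes, 7 were higher and 3 passed, and their mean was 5.48 to 5.64 against 4.98 to 5.21. General microglial markers were higher in 9 of 11 and none passed; their mean was 5.80 to 6.04 on TgCRND8 arrays against 5.66 to 5.77 on controls, without overlap. Endothelial markers, from cells known to express Ifitm3 readily, were lower in 7 of 11 with a median difference of -0.09, and none passed; their mean was 5.80 to 6.10 against 5.91 to 5.99. At day 80, 8 of 8 markers of blood monocytes and neutrophils were higher in TgCRND8, none passed, and their mean was 3.96 to 4.16 against 3.73 to 4.02. At that age 7 of 8 markers of reactive astrocytes were higher, with a median of 0.13, and none passed; their mean was 5.18 to 5.32 against 5.03 to 5.24. At day 80, 9 of 11 endothelial markers were higher, with a median of 0.05. Of plaque-associated microglial markers 9 were higher and 4 lower at day 80 (median 0.08), and of general microglial markers 7 and 4 (median 0.04). Choroid plexus and lymphocyte markers had medians of 0.15 and 0.12, with 5 of 8 and 6 of 9 higher. Oligodendrocyte markers had a median of -0.09, with 1 of 9 higher. None of these passed at day 80. At day 150 the median was -0.105 for monocytes and neutrophils, -0.100 for lymphocytes and -0.085 for choroid plexus. In that order 3 of 8, 3 of 9 and 2 of 8 markers were higher. Oligodendrocyte markers had a median of 0.02 at day 150, with 6 of 9 higher. No marker of these 4 lists passed at that age. Markers below the lower quartile on most arrays numbered 2 of 13 for plaque-associated microglia, 1 of 8 for reactive astrocytes and 0 of 11 for general microglia. They numbered 0 of 11 for endothelium, 2 of 8 for monocytes and neutrophils, 1 of 8 for choroid plexus, 4 of 9 for lymphocytes and 0 of 9 for oligodendrocytes. The part of these cells in the Ifitm3 values was not tested.

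Over the 24 arrays, the correlation of Ifitm3 with the mean of the plaque-associated microglial markers was 0.55, and 0.18 after the group means were removed. The arrays share their age and genotype groups, so the first of these values contains the group differences. For the other measured genes the first value ran from -0.19 (Irf7) to 0.46 (Oasl2). After the group means were removed they ran from -0.24 (Bst2) to 0.58 (Ifit1). With the general microglial markers Ifitm3 had 0.40, and 0.21 after the group means were removed.

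Bst2, or tetherin, which holds budding viruses at the cell surface, was the other gene with an unadjusted p under 0.05. At day 70 the TgCRND8 arrays read 4.59, 4.58, 4.38 and 4.57, and the control arrays read 4.77, 4.80, 4.58 and 4.72. The ranges touched, with the lowest control at 4.584 just below the highest TgCRND8 array at 4.585. The difference was -0.19 (SE 0.08) with an unadjusted p of 0.0257, an adjusted p of 0.9997 in limma and an exact permutation p of 0.0571. At day 80 the Bst2 difference was 0.01 (SE 0.08) and at day 150 it was 0.07 (SE 0.08), and the groups overlapped at both ages. TgCRND8 at day 70 was the lowest of the 6 groups at 4.53 ± 0.10, followed by control at day 150 at 4.61 ± 0.17, and the other 4 groups lay between 4.69 and 4.72.

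Irf7, the transcription factor that amplifies interferon production, read 3.15 to 3.74 over the 24 arrays. Its differences were 0.13 (SE 0.11) at day 70, 0.12 at day 80 and -0.08 at day 150, and the groups overlapped at each age. Ifit1, which recognises foreign RNA by its cap, ranged from 3.07 to 3.77. Its differences were -0.02 (SE 0.13), -0.02 and 0.08 at the 3 ages in order. Ifit3, a partner of Ifit1 with tetratricopeptide repeats, was above the array's median on each array, at 5.55 to 6.24. Its differences were -0.02 (SE 0.11), -0.17 and 0.00, so at day 150 the 95% interval ran from -0.22 to 0.22 log2. Signs of differences this close to 0 changed with the processing for several of these genes.

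Oasl2, a relative of the oligoadenylate synthetases that sense double-stranded RNA, read 2.63 to 3.22. Its differences were -0.02 (SE 0.10), -0.01 and 0.14 at days 70, 80 and 150, the last being 0.05 without replicate 4 of the day 150 controls. Usp18, the protease that acts as a brake on the response, read 2.91 to 3.65. Its differences were 0.16 (SE 0.11), 0.18 and -0.01. For both genes the groups overlapped at every age. Ifi27, a mitochondrial protein induced by interferon, had differences of 0.08 (SE 0.08), 0.04 and 0.02 with the brighter of its probe sets and of 0.02, 0.08 and 0.07 with the other. At day 150 the 95% intervals of these 2 probe sets reached at most 0.19 and 0.24 log2.

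The second comparison averaged the genotype difference over the 3 ages. Again 0 of 8 genes passed, beside 0.0385% of all genes, and 1 of 8 had an unadjusted p under 0.05, beside 3.16%. That gene was Ifitm3, at 0.17 (SE 0.07; adjusted p = 0.9996 in limma), and at 0.223 without replicate 4 of the day 150 controls (adjusted p = 0.558). The next was Usp18 at 0.11 (SE 0.06) with an unadjusted p of 0.0824. Of the 8 mean differences 6 were above 0 and 2 below, with a median of 0.04, and they ran from -0.06 to 0.17. Without replicate 4 of the day 150 controls that median was 0.0181.

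The third comparison asked whether the genotype difference at day 150 departed from its mean at days 70 and 80. No gene of the 8 passed, beside 0.011% of all genes, and 1 of 8 had an unadjusted p under 0.05, beside 5.75%. For Ifitm3 the difference was larger at day 150 by 0.31 (SE 0.15; unadjusted p 0.0469, adjusted p = 0.865 in limma), and by 0.46 without replicate 4 of the day 150 controls (adjusted p = 0.37). The median change of the 8 genes was 0.10, or 0.0645 without that array, and that of all genes 0.0016. Irf7 and Usp18 moved the other way, by -0.20 (SE 0.14) and -0.18 (SE 0.13).

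Age was compared within each genotype. In controls, from day 70 to day 150, 0 of 8 genes passed, beside 0.022% of all genes, and 1 of 8 had an unadjusted p under 0.05, beside 7.99%. In TgCRND8 mice 0 of 8 passed, beside 0.0879%, and 2 of 8 had an unadjusted p under 0.05, beside 2.64%. The median age difference of the 8 genes was 0.05 in controls and 0.15 in TgCRND8, where the medians of all genes were -0.0034 and -0.0026. Without replicate 4 of the day 150 controls the median in controls was 0.123, and without replicate 1 it was -0.0168. From day 80 to day 150, 0 of 8 genes passed in either genotype. At an unadjusted p under 0.05 it was 0 of 8 in controls and 1 of 8 in TgCRND8. That gene was Ifit3, at 0.24 (SE 0.11; unadjusted p 0.033, adjusted p = 0.699 in limma). Leaving out replicate 4 of day 150 gave Ifitm3 in controls -0.24 (unadjusted p 0.0359 in limma). Shares of all genes are not given for this step.

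Ifi27 was the gene with the lowest p in controls. With the brighter probe set the control arrays read 7.57, 7.58, 7.54 and 7.48 at day 70, then 7.66, 7.69, 7.69 and 7.71 at day 80, and 7.67, 7.72, 7.73 and 7.89 at day 150. Every control array of day 80 and day 150 lay above every control array of day 70. The difference from day 70 to day 150 was 0.21 (SE 0.08; 1.16-fold, 95% interval 1.03 to 1.30), with an adjusted p of 0.54 in limma and an exact permutation p of 0.0286, the smallest possible. Without replicate 4 of day 150, the highest of its group, the difference was 0.165 with an adjusted p of 0.469. With each array left out in turn it ran from 0.165 to 0.24. When replicate 4 of the day 70 controls, the array with low Xist, was left out, no gene of the 8 had an adjusted p under 0.961 in limma. With Xist as covariate none was under 0.763. Of the 8 genes 1 was higher in controls of day 150 with no overlap, beside 2.04% of all genes.

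In TgCRND8 mice the same probe set read 7.61, 7.77, 7.64 and 7.47 at day 70 and 7.81, 7.72, 7.80 and 7.77 at day 150, a difference of 0.15 (SE 0.08). One array of day 70 lay above the lowest of day 150, so the groups overlapped. The second probe set gave 0.22 (SE 0.08) in controls and 0.28 (SE 0.08) in TgCRND8, and the groups of day 70 and day 150 did not overlap in either genotype. Its unadjusted p in TgCRND8 was 0.00217 and its adjusted p 0.9998, in the limma fit over all probe sets. The 2 probe sets differed on when the step came in controls. With the brighter one, days 70 and 80 were 0.14 apart and did not overlap (adjusted p = 0.9999 in limma). With the other they were 0.03 apart and overlapped, and day 150 stood 0.19 above day 80. The share of all genes without overlap from day 70 to day 80 is not given here. The suffix of the brighter probe set marks probes that can bind more than 1 transcript, although the annotation gives it only to Ifi27.

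**Figure D3:**
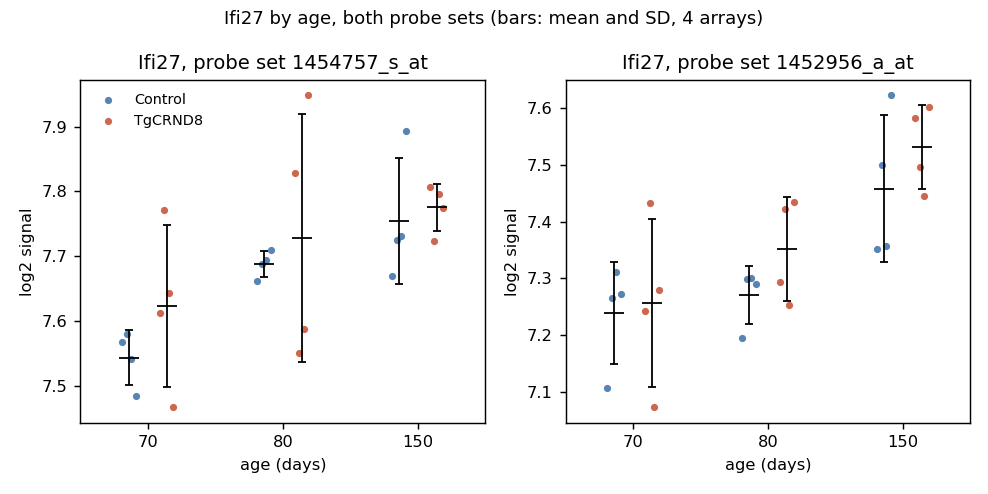
Log2 signal of Ifi27 against age in days for its 2 probe sets, in control (blue) and TgCRND8 (red) forebrain; points are arrays and bars the mean and SD of 4 arrays. Day 150 lies above day 70 with both probe sets, with no overlap except for TgCRND8 in the left panel.

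In TgCRND8 mice Ifitm3 was higher at day 150 than at day 70 by 0.32 (SE 0.12), with an unadjusted p of 0.0134 and an adjusted p of 0.9998 in limma; the arrays overlapped, since replicate 2 of day 70 read 6.79. In controls the same step was -0.12 (SE 0.12), and without replicate 4 of day 150 it was -0.27 (SE 0.11; unadjusted p 0.0201, adjusted p = 0.361 in limma). Oasl2 was higher by 0.21 (SE 0.10; unadjusted p 0.0452) in TgCRND8 and by 0.05 in controls, or 0.14 in controls without that array. These Oasl2 signals lay below the lower quartile except on replicate 3 of TgCRND8 at day 150. Bst2 in TgCRND8 was higher at day 150 than at day 70 by 0.16 (SE 0.08) with no overlap, which was 1 of 8 genes beside 1.22% of all genes. At day 80 it already stood 0.20 above day 70 (SE 0.08, adjusted p = 0.848 in limma), again with no overlap. The share of all genes without overlap is not given for that step. The same low group of TgCRND8 at day 70 enters both of these Bst2 differences and the genotype difference at that age.

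Across the 24 arrays the 8 genes moved together only weakly. The 28 pairs had Pearson correlations from -0.40 to 0.48 with a median of 0.13, 19 were above 0, and 0 reached 0.5. The highest was between Ifitm3 and Ifi27 at 0.48 (Spearman 0.46). It was 0.53 after the group means were removed and 0.40 without the 2 arrays farthest from the median of Ifitm3, both of TgCRND8 at day 150. Replicate 4 of the day 150 controls, the highest of its group for both genes at 6.97 and 7.89, stayed in all of these values. Usp18 and Ifi27 followed at 0.48, with 0.32 when the 2 arrays farthest from the median of Usp18 were left out. The lowest was between Irf7 and Ifitm3 at -0.40. Ifit1 and Ifit3, which lie close together on chromosome 19 and whose promoters both carry a pair of response element matches, had a correlation of -0.11. Ifit1, Irf7, Oasl2 and Usp18 were below the array's median on each of the 24 arrays. Every pair with a correlation below 0 included a gene of this dim set. Pairs among the brighter Ifit3, Bst2, Ifitm3 and Ifi27 ran from 0.17 to 0.48. How far low signal shaped the correlations was not tested. All these values describe 24 arrays that share groups, and no test was made of them.

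The genes most like the mean of the 8, each centred on its own mean over 24 arrays, were Cd300a with a Pearson correlation of 0.80, then Ern1, Lrrc66, Prl7c1, Smtnl2, Fam229a, Fam160a1 and Yipf2, at 0.74 to 0.71. They are the highest of all genes by choice. For single genes the closest were Serpinb6c for Ifit1 (0.75), Rint1 for Ifit3 (0.72), Prl4a1 for Irf7 (0.82), Ccnb1ip1 for Bst2 (0.67), Ccdc185 for Oasl2 (0.73), Lrrc15 for Usp18 (0.83), Glra1 for Ifitm3 (0.67) and Myh14 for Ifi27 (0.71). None of them was on the interferon lists used here. Serpinb6c, Ccdc185 and Glra1 lay below the lower quartile on 24 of 24 arrays, Prl7c1 on 21, Rint1 on 10 and the others on at most 5.

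The rest of the interferon system was read from lists of 151 further genes, from ligands to effectors, of which 126 were measured. None of the 126 passed in any of the comparisons of genotype at the 3 ages, of genotype over the ages or of age within a genotype. At day 150, 67 were higher and 59 lower in TgCRND8 with a median of 0.01, and 13 (10.3%) had an unadjusted p under 0.05, beside 4.38% of all genes; at days 70 and 80 it was 4.76% and 2.38%, beside 3.25% and 3.77%. The lists were drawn up with earlier results of these arrays known, so these shares are descriptions.

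The ligands were dim: of 9 measured, 5 were below the lower quartile on most arrays, and none had an unadjusted p under 0.05 at day 150. Among the 6 receptor chains, Ifnar2, the signalling chain of the type I receptor, was 6.46 ± 0.06 (SD, n = 4) in TgCRND8 and 6.23 ± 0.13 in controls at day 150, a difference of 0.23 (SE 0.09), and Ifnar1 differed by 0.10. Of the 5 measured genes that carry the signal inward, Tyk2, the kinase bound to Ifnar1, differed by -0.21 (SE 0.09), whereas Stat2, Jak1 and Irf9 differed by 0.07, 0.06 and 0.05. Adjusted p for these was 0.999 in limma.

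Irf8, a factor of macrophages and microglia that belongs to the same family as Irf7, had the largest difference of the lists at day 150. It was 4.68 ± 0.23 in TgCRND8 (4.47 to 4.98) and 4.16 ± 0.15 in controls (3.95 to 4.28), and the groups did not overlap. The difference was 0.52 (SE 0.12) with an adjusted p of 0.126 in limma, and adjusted p ran from 0.0855 to 0.793 when each day 150 array was left out in turn. The other 5 family members measured differed by at most 0.10 in size at day 150. At that age 3% of all genes had groups that did not overlap, and such genes were not counted over the lists.

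Among 17 sensors of foreign nucleic acid and their adaptors, none had an unadjusted p under 0.05 at day 150. The largest differences were those of Dhx58 (-0.22, SE 0.11), Ifih1 (0.17, SE 0.13), Tlr3 (0.16, SE 0.11) and Trim25 (0.16, SE 0.12), the first 3 being receptors for viral RNA and the last a ubiquitin ligase of their pathway. Of 13 genes that restrain the response, Nlrc5 differed by 0.25 (SE 0.10), at a signal below the lower quartile on 21 arrays, and the phosphatase Ptpn2 by 0.21 (SE 0.09). Rnaseh2c and Socs1 followed with 0.15 and 0.13. The 4 enzymes that attach Isg15 to proteins had a median of 0.00.

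Of 52 other effectors of type I interferon, 27 were higher and 25 lower at day 150, with a median of 0.01. Ly6e, a surface protein that restricts coronaviruses, differed by 0.26 (SE 0.12) and Parp12 by 0.25 (SE 0.15), while Parp9 differed by -0.24 (SE 0.10) and Tor3a by -0.23 (SE 0.11). Of 10 GTPases induced by interferon gamma, 4 were higher and 6 lower: Irgm2 differed by 0.21 (SE 0.08), without overlap, and Ifi47 by -0.21 (SE 0.09). Gbp7 and Irgm1 differed by -0.16 and 0.16. The share of all genes without overlap was 3% at this age.

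Antigen presentation, which interferon also induces, was counted apart. Of 14 measured genes 10 were higher and 4 lower at day 150 with a median of 0.09, 2 had an unadjusted p under 0.05 and none passed. B2m, the light chain of class I molecules, was 9.48 ± 0.08 in TgCRND8 (9.40 to 9.56) and 9.13 ± 0.15 in controls (8.94 to 9.27). The B2m groups did not overlap, as was so for 3% of all genes. Its difference was 0.35 (SE 0.08) with an adjusted p of 0.102 in limma, and 0.0713 to 0.568 with each day 150 array left out. Cd74, the invariant chain of class II, differed by 0.36 (SE 0.15), Psmb8 by 0.18 and Psmb9 by -0.18.

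**Figure D4:**
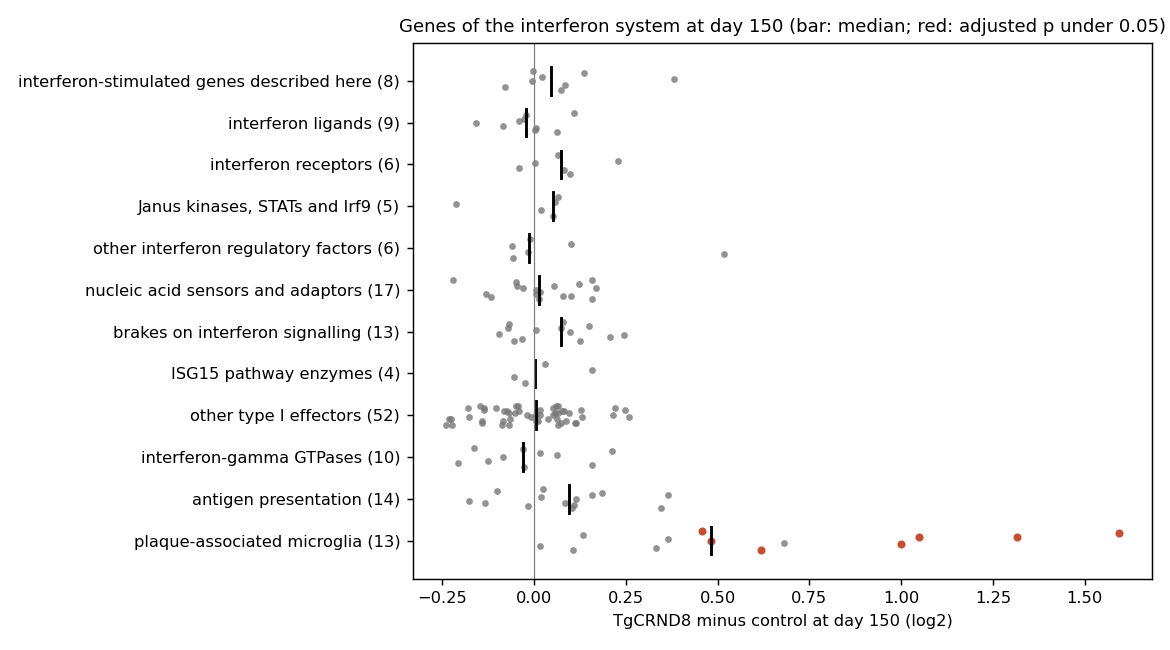
Difference in log2 signal between TgCRND8 and control at day 150 (horizontal axis) for each measured gene of the lists, with the number of genes in brackets, 4 arrays per group; points are genes, black bars list medians and red marks an adjusted p under 0.05. The 8 interferon-stimulated genes and the other lists of the system spread around 0 with no gene passing, whereas 7 of the 13 markers of plaque-associated microglia passed.

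The close relatives of the 8 genes were read for the same pattern. In the Ifitm family, Ifitm2, whose coding sequence is much like that of Ifitm3, differed by 0.22 (SE 0.13) at day 150 and by 0.36 without replicate 4 of the controls (adjusted p = 0.512 in limma), while Ifitm1, Ifitm10 and Ifitm6 differed by 0.01, -0.05 and 0.06, and Ifitm5 and Ifitm7 by -0.16 and -0.07. Whether probes of Ifitm3 also bind transcripts of Ifitm2 was not tested. At day 80 Ifitm2 differed by -0.11 (SE 0.13), where Ifitm3 differed by 0.20. In the Ifit family, Ifit2 and Ifit1bl1 differed by -0.07 and -0.04 and Ifit1bl2 by 0.02 at day 150. Of the Ifi27 family, Ifi27l2a differed by 0.13 (SE 0.15) and Ifi27l2b by -0.09 (SE 0.11); over age, from day 70 to day 150, Ifi27l2a changed by 0.06 in controls and 0.16 in TgCRND8 and Ifi27l2b by 0.14 and -0.12, and no test was passed. Of 10 genes of the Oas family, Oasl2 included, 6 were higher and 4 lower at day 150, with a median of 0.04.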

How the data were processed

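Forebrain RNA of 24 mice was hybridised to Affymetrix mouse arrays, 1 array per mouse. The values are log2 signals as the authors deposited them, used without further transformation; no normalization method is given in the sources used here. The number of arrays, 4 per group, limits precision. Of 45101 probe sets, 64 were array controls, 34945 carried 1 gene symbol in the array annotation, 932 several and 9160 none. Each gene took its probe set with the highest mean, which left 18193 genes.

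All arrays entered 1 limma fit with 6 group means (18 residual and 7.47 prior degrees of freedom), tested on simulated arrays beforehand. Genes passed when the p adjusted by Benjamini and Hochberg over all genes was under 0.05. Exact permutation of 8 arrays (70 labellings, two-sided) was run per gene. The 9 genes, the pathway and marker lists and the comparisons were chosen with earlier results of these data known. Named genes were all members, up to 4 genes of each pathway list with the largest difference at day 150, family members, the genes most correlated with the members, and up to 3 markers a list; the cerebellar markers named, and the array they mark, were picked after their values were seen.

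Replicate numbers are shared across groups. At day 150 the deviations of same-numbered arrays had a correlation over 0.1 in 4 of 4 pairs (0.137 to 0.256), and over all ages in 9 of 12 (-0.321 to 0.479); the labels do not say that numbers mark litters or days. The alternatives were other normalizations, filters, weights, a replicate block, Xist as covariate, other probe set choices, a threshold of 0.10 and each array left out. Promoters were searched in the RefSeq table of GRCm38.p6. The software was limma 3.58.1 in R 4.3.3, with Python 3.11.15 and matplotlib 3.10.9 for tables and plots.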

Additional observations from a re-analysis of the deposited data

Results flagged for a closer look

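In 6 of 54 groups of 4 arrays, 1 array lay far from the other 3, with its gap to the nearest of them above 0.829 of the group's range; chance flags about 1 group in 20. Ifitm3 read 6.97 on replicate 4 of the day 150 controls, where the others read 6.31 to 6.41, and that array also had the raised cerebellar markers. Ifitm3 read 6.79 on replicate 2 of TgCRND8 at day 70, above 6.49 to 6.52. Bst2 read 4.38 on replicate 3 of TgCRND8 at day 70, below 4.57 to 4.59. Usp18 read 3.31 on replicate 4 of TgCRND8 at day 70, above 3.16 to 3.17. Irf7 read 3.17 on replicate 2 of the day 80 controls, below 3.48 to 3.52. The second Ifi27 probe set read 7.19 on replicate 1 of the day 80 controls, below 7.29 to 7.30.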

How the results depend on the processing

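Counts of genes past the threshold stayed the same in 157 of 158 recomputations; the exception was 1 gene, Ifitm3, at day 150 without replicate 4 of the controls (range 0 to 1 when each array was left out). When each array was left out in turn, the median genotype difference ran from -0.039 to 0.0592 at day 70, from -0.0231 to 0.0666 at day 80, from 0.0186 to 0.066 at day 150 and from 0.0181 to 0.0565 over the 3 ages. The median day 150 change ran from 0.045 to 0.125, and the median age difference from -0.0168 to 0.123 in controls and from 0.126 to 0.175 in TgCRND8. The replicate block leaves a difference of group means as it is in this balanced design (0.381 for Ifitm3 at day 150); with it the adjusted p of Ifitm3 at day 150 was 0.708 in limma, and no call changed. The block gives a replicate number the same effect at all ages, so a pairing within day 150 alone was not tested.

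Of the recomputed differences of single genes 40 changed sign, in each case from a main value of at most 0.0775 in size. With array weights Ifit1 became 0.0533 at day 70 and 0.0162 at day 80. With median centring Bst2 became -0.0124 at day 80, and Ifit3 0.0223 and Usp18 0.0176 at day 150. With quantile normalization Usp18 became 0.0297 and Ifi27 -0.0131 at day 150. With each array left out, the day 70 differences ran from -0.117 to 0.117 for Ifit1, from -0.0908 to 0.0306 for Ifit3 and from -0.065 to 0.0392 for Oasl2. The day 80 differences ran from -0.0721 to 0.0865 for Ifit1, from -0.0192 to 0.0396 for Bst2, from -0.0524 to 0.0454 for Oasl2 and from -0.0323 to 0.1 for Ifi27. The day 150 differences ran from -0.0898 to 0.064 for Ifit3, from -0.155 to 0.0153 for Irf7, from -0.00653 to 0.123 for Bst2, from -0.0691 to 0.0697 for Usp18 and from -0.00759 to 0.0671 for Ifi27. Over the 3 ages Ifit1 ran from -0.0162 to 0.0615. The causes were not tested. Same-numbered arrays at day 150 each correlated best with their own number; over all ages this held for 8 of 12 pairs. Whether Oasl2 and Usp18 stood above background was not tested.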
